A study of Mus musculus with 2 samples.

Results

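The endoplasmic reticulum (ER) folds secreted and membrane proteins, and an excess of misfolded protein there starts the unfolded protein response through the sensors PERK, IRE1 and ATF6. PERK shares its substrate, the translation factor eIF2, with kinases that sense lack of amino acids, double-stranded RNA or haem, and the joint outcome is called the integrated stress response. Phosphorylated eIF2 slows protein synthesis in general but favours translation of ATF4, so that its activity can change without a change in its mRNA. IRE1 splices the mRNA of XBP1, which array probes that bind both forms cannot show. The 10 genes examined here are widely used readouts of these pathways. They are the transcription factors *Atf4*, *Ddit3* (which encodes CHOP), *Atf3* and *Xbp1*, the ATF4 and CHOP targets *Asns*, *Chac1*, *Trib3* and *Ddit4*, and the ER genes *Hspa5* (which encodes the chaperone BiP) and *Herpud1*.

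They were taken as all non-control probes whose gene name in the scanner output is one of these symbols. This gave 18 probes for 10 genes, among 22008 genes detected, that is with a probe well above background in either genotype, of 36998 distinct names on the array. No other probe (0) belonged to them under an older name or a transcript accession.

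Striatal RNA was hybridised to single-colour Agilent arrays with probes of 60 bases, 2 in all and 1 for each genotype. WT mice were of the strain C57BL/6J according to the labels, whereas the methods take as controls the non-mutant offspring of heterozygous crosses. Cx30 KO mice, labelled Cx30-LacZ, lack the astrocytic gap junction protein Cx30 in every cell. All mice were males aged 8 weeks. MPTP was given 4 times, every 2 h, at 20 mg/kg, and the striata were taken on day 1 after the last dose. Both groups received MPTP, whose toxic product, made in astrocytes, enters dopaminergic neurons. The comparison is thus of genotypes under MPTP and not of MPTP with saline, which was not analysed here. Each array holds the pooled RNA of 2 mice, so no spread between mice, no test and no p-value can be given, and genotype cannot be told apart from differences between the pools. In tissue RNA, fewer cells of a type and less RNA per cell cannot be told apart either. *Gjb6*, the deleted gene, gave 1788 ± 179 units of processed signal in WT but 111 ± 11.6 in Cx30 KO at its brighter probe, 15.4-fold lower after scaling. Its other probe was at least 4.33-fold lower, so the gene goes with the labels. In this text ± is the error that the scanner software gives for a spot.

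Signals are given as processed signal, in the scanner's arbitrary units. The log2 ratio is Cx30 KO over WT after each array was scaled by its 75th percentile (401 in WT and 382 in Cx30 KO), so a ratio can differ slightly from that of the signals as printed. The scanner error of a member's log2 ratio lay between 0.20 and 0.21. Log2 ratios of different probes of the same gene had a pooled SD of 0.26 over 7147 genes, or 0.14 as the median over genes, and those of repeated spots of a probe an SD of 0.07, or 0.05 with spots paired by position. None of these covers mice. The study called a gene higher from ratios of 1.5 with Z-scores of 2.0 upwards, and lower from 0.66 and −2.0 downwards, and these limits are its criteria here. The Z-score sets a log2 ratio against those of the 1000 probes nearest in signal. By these criteria 377 of 22008 genes (1.71%) were higher and 583 (2.65%) were lower in Cx30 KO.

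Among the 10 genes, *Trib3* was past the criteria as a higher gene, 1.76-fold higher in Cx30 KO, and 0 genes were past them as lower genes. With 10 genes and 1.71% of all genes called, 1 call is little to read anything from. The median log2 ratio was 0.02 over the members and 0.03 over all genes. Of the 10 genes 6 were higher and 4 were lower, and without *Trib3* their log2 ratios lay between −0.29 and 0.36. At the level of probes, 8 were higher and 10 were lower, with *Trib3* again the single 1 past the criteria, against 1.53% of all detected probes higher and 2.3% lower. All 18 probes were well above background on both arrays, so no member entered through 1 genotype alone.

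The promoters of these genes were searched for the elements that the factors of these pathways bind. ATF4 binds the C/EBP-ATF response element, searched here as TGATGNAA, and ATF6 and XBP1 bind the ER stress response element, searched as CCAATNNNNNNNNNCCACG, and its second form, the ER stress response element II. These letters were searched on both strands of the 300 bases around the start site (250 before and 50 after) of 32851 mouse promoters from RefSeq (GRCm38.p6), which held all 10 members. The stretches upstream of the start site that hold a match follow, 5′ to 3′ on the strand of the gene, with the match in capitals and up to 20 bases on either side. They are shown because genes with the same element had log2 ratios of different sign. In the genes shown, however, these ratios were within 2 scanner errors.
*Atf3*, chr1:191183416-191183463, minus strand: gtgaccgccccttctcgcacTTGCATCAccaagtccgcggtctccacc
*Chac1*, chr2:119351029-119351076, plus strand: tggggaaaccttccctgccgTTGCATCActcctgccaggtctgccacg
*Asns*, chr6:7693210-7693252, minus strand: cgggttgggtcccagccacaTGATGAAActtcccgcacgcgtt
*Herpud1*, chr8:94386297-94386407, plus strand: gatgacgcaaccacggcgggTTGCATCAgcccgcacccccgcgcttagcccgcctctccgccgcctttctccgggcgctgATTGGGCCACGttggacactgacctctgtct
*Hspa5*, chr2:34772005-34772063, plus strand: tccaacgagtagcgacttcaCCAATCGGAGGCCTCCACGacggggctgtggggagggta

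The C/EBP-ATF letters were present in 5 members, *Atf3*, *Chac1*, *Asns*, *Herpud1* and *Trib3*, and in 3.97% of all promoters. In *Trib3* the match (TTACATCA) lies after the start site, at bases 15 to 22. The log2 ratios of these 5 genes were −0.29, 0.23, 0.12, −0.13 and 0.82. Only that of *Trib3* was beyond 2 scanner errors, and those of *Asns* and *Herpud1* were within 1. Apart from *Trib3* the signs are thus not resolved, and whether the element goes with a direction was not tested. The ER stress response element was found in *Hspa5* and in 0.119% of all promoters, and its second form in *Herpud1* (ATTGGGCCACG) and in 0.0365%. The cAMP response element (TGACGTCA, 1.79% of promoters) and the core bound by XBP1 (TGACGTGG, 0.676%) were in 0 members. *Atf4*, *Ddit3*, *Xbp1* and *Ddit4* held none of the 5 motifs in this window. A match is not a binding site, and the window leaves out elements farther away.

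*Atf4*, the transcription factor at the centre of the integrated stress response, has a pair of probes. The brighter probe (chr15:80087902-80087961 of mm9, the build of all probe positions here) gave 15742 ± 1574 in WT against 15014 ± 1501 in Cx30 KO. Its log2 ratio was 0.00, far within the scanner error of 0.20. The other (chr15:80087079-80087138) gave 912 ± 91.3 in WT against 748 ± 74.8 in Cx30 KO, with log2 ratio −0.22 and Z-score −0.74. Their log2 ratios lay 0.22 apart, which is less than the pooled SD between probes of a gene and more than its median. A distance is a range and not an SD, so this does not grade how well the probes agreed.

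*Ddit3* encodes CHOP, a transcription factor that ATF4 induces and that promotes cell death in lasting ER stress. Its brighter probe (chr10:126732518-126732821, a span longer than the probe) had 894 ± 89.5 in WT and 1089 ± 109 in Cx30 KO. The log2 ratio was 0.36, or 1.74 times the scanner error, with a Z-score of 1.25. It ranked next to *Trib3* among the higher members, but its ratio of 1.28 was under the limit. The second probe, designed on another transcript (chr10:126731579-126731638), had 299 ± 30.2 in WT and 308 ± 31.0 in Cx30 KO, for a log2 ratio of 0.11.

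*Atf3*, a stress-induced factor downstream of ATF4 that is also induced in injured neurons, has 1 probe (chr1:192994547-192994606). It had 252 ± 25.6 in WT and 196 ± 20.02 in Cx30 KO. The log2 ratio of −0.29 was the lowest among the member genes, at 1.41 times the scanner error and a Z-score of −0.85, so it was not past the criteria.

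*Xbp1*, the target of IRE1 splicing, has 3 probes. The brightest (chr11:5425816-5425875) had 8952 ± 895 in WT and 8444 ± 844 in Cx30 KO, for a log2 ratio of −0.01. The second (chr11:5424970-5425029) had 783 ± 78.4 in WT and 626 ± 62.7 in Cx30 KO, for a log2 ratio of −0.25. The third (chr11:5424869-5424928) had 486 ± 48.9 in WT and 413 ± 41.5 in Cx30 KO, for a log2 ratio of −0.16. All 3 were on the lower side, and none was past the criteria. Splicing itself was not measured.

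**Figure D1:**
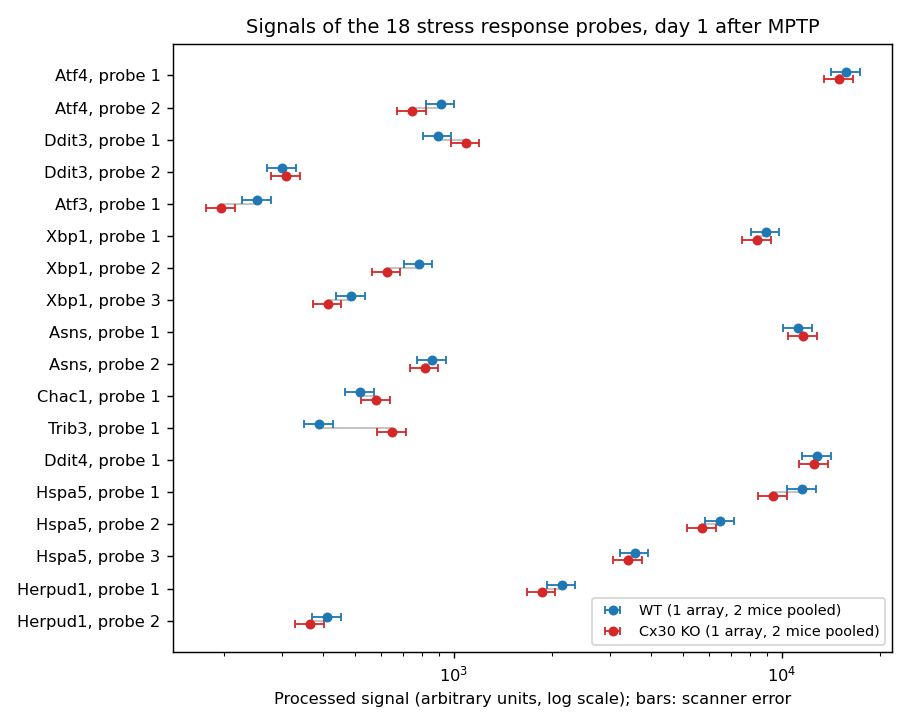
Processed signal (arbitrary units, log axis) of the 18 probes in WT and in Cx30 KO, 1 array each, with the scanner error as bars and each gene's probes numbered from the brightest. The genotypes lie farthest apart for their error at *Trib3*, with 388 in WT and 650 in Cx30 KO.

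*Trib3* encodes a pseudokinase that ATF4 and CHOP induce and that feeds back on both. Its 1 probe (chr2:152163161-152163220, minus strand) had 388 ± 39.2 in WT and 650 ± 65.2 in Cx30 KO. After scaling these were 379 and 667, a log2 ratio of 0.82 ± 0.21, or 3.97 times the scanner error. Of the 18 probes it was the single 1 beyond 2 scanner errors, while 11 lay within 1. The Z-score was 2.63, and the ratio was 1.76. With 1 probe, no second sequence measures the gene. The log2 ratio was between 0.70 and 0.82 over the scalings and background corrections tried. The call was lost with ratio limits of 2 and 0.5, and with a Z-score over all probes well above background, where the Z-score was 1.28.

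The other targets of ATF4 and CHOP differed less. *Chac1*, which breaks down glutathione, had 518 ± 52.0 in WT and 581 ± 58.2 in Cx30 KO at its 1 probe (chr2:119179990-119180049), for a log2 ratio of 0.23 with Z-score 0.78. *Asns*, the asparagine synthetase, had 11238 ± 1124 in WT and 11637 ± 1164 in Cx30 KO at the brighter probe (chr6:7625171-7625228), for a log2 ratio of 0.12. Its other probe (chr6:7626110-7626255) had 860 ± 86.1 in WT and 815 ± 81.7 in Cx30 KO, for a log2 ratio of −0.01. *Ddit4*, an inhibitor of mTOR signalling that hypoxia and glucocorticoids also induce, had 12852 ± 1285 in WT and 12585 ± 1258 in Cx30 KO (chr10:59412486-59412545), for a log2 ratio of 0.04. All 4 target genes were thus on the higher side at their brightest probe, with a median of 0.18, but 3 of them by little more than the scanner error or less, and *Ddit4* turned to −0.01 when arrays were scaled by their median.

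The ER genes were both on the lower side. *Hspa5*, the chaperone that holds the sensors inactive and a target of ATF6 and XBP1, has 3 probes. The brightest (chr2:34631913-34631972) had 11540 ± 1154 in WT and 9431 ± 943 in Cx30 KO, for a log2 ratio of −0.22 with Z-score −1.11. The next (chr2:34631136-34631195) had 6501 ± 650 in WT and 5717 ± 572 in Cx30 KO, for a log2 ratio of −0.11. The dimmest (chr2:34630699-34631075) had 3569 ± 357 in WT and 3401 ± 340 in Cx30 KO, for a log2 ratio of 0.00. *Herpud1*, which helps to remove misfolded protein from the ER, had 2133 ± 213 in WT and 1858 ± 186 in Cx30 KO at its brighter probe (chr8:96919117-96919176), for a log2 ratio of −0.13. Its other probe (chr8:96918575-96918634) had 412 ± 41.4 in WT and 365 ± 36.7 in Cx30 KO, for a log2 ratio of −0.10. Of the 6 member genes with 2 or 3 probes, the probes of 3 (*Asns*, *Atf4* and *Hspa5*) fell on either side of 0. The largest distance between probes of a gene, 0.24 in *Ddit3*, was below the pooled SD between probes, but the distances of 4 genes were above the median SD of 0.14. A distance is a range over 2 or 3 probes and not an SD. The comparison thus cannot show whether the probes agreed more or less than is usual.

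**Figure D2:**
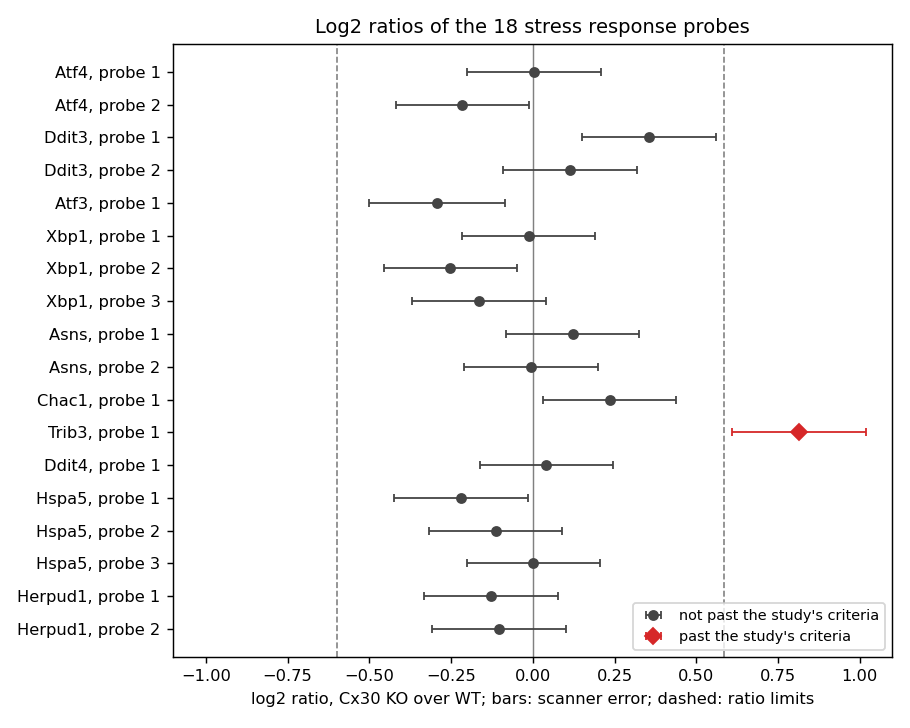
Log2 ratio of Cx30 KO over WT for the same 18 probes, with the scanner error as bars and the study's ratio limits as dashed lines. *Trib3* at 0.82 lies beyond the upper limit, and the other 17 probes lie between −0.29 and 0.36.

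The remaining genes of these pathways were taken from 5 lists of 110 genes, all but 3 of which were detected. Those detected had a median log2 ratio of −0.06, with 62 lower and 44 higher. By the study's criteria 5 of them (4.67%) were lower, against 2.65% of all genes, and 1 gene (0.93%) was higher, against 1.71%. The 17 genes for sensors and for eIF2 and its regulators had, at their brightest probes, 0 calls and a median of 0.04. The median was −0.01 when arrays were scaled by their median. Detected probes of the same gene differed widely in *Eif2ak4* (log2 ratios or bounds from −2.16 to 0.04) and *Mbtps2* (−0.15 to 1.53). Both were chosen for mention after their values were seen. *Eif2s1*, the phosphorylated subunit of eIF2, had 1552 ± 155 in WT and 1063 ± 106 in Cx30 KO, for a log2 ratio of −0.47. The other genes of this list with the largest ratios were *Eif2ak2*, the kinase for double-stranded RNA (−0.33), *Mbtps1*, a protease that activates ATF6 (0.23), and *Atf6b* (−0.22).

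Of 29 other ATF4 and CHOP targets 26 were detected, and 3 were past the criteria, all lower in Cx30 KO, the direction opposite to that of *Trib3*. *Nupr1*, a stress-induced chromatin protein, had 4174 ± 417 in WT and 1502 ± 150 in Cx30 KO, 2.64-fold lower with a Z-score of −5.13. *Aldh1l2*, a mitochondrial enzyme of folate metabolism, had 88.9 ± 10.2 in WT and 24.8 ± 5.13 in Cx30 KO, 3.41-fold lower. Its signal in Cx30 KO lay close to the lowest that counted as well above background, 17.4, and its 3 probes had log2 ratios from −1.77 to −1.29. *Slc6a9*, a glycine transporter of astrocytes, had 6135 ± 614 in WT and 3270 ± 327 in Cx30 KO, 1.79-fold lower. *Cth*, which makes cysteine, had a log2 ratio of −0.51 and was not past the criteria. The median of the list was −0.07. *Gdf15* and *Stc2* were well above background in Cx30 KO only, where *Gdf15* was at least 1.52-fold higher with a Z-score of 0.98, and no fold can be given for *Stc2*. *Fgf21*, *Adm2* and *Pycr1* were not well above background on either array. *Gdf15*, *Stc2* and these 3 were chosen for mention after their values were seen.

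ATF4 also induces the enzymes that load amino acids onto tRNA. The 20 cytosolic aminoacyl-tRNA synthetases were divided evenly, with 10 lower and 10 higher and a median of 0.00. *Farsb* was past the criteria (1.56-fold lower), but not when a gene's probes were averaged. *Hars1* (0.47) and *Eprs1* (−0.29) were not past them.

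Of the 21 ER chaperones and folding enzymes 14 were lower and 7 were higher, with a median of −0.15, and their median was between −0.19 and −0.15 over the scalings and filters tried. *Wfs1*, an ER membrane protein that is also abundant in striatal neurons, was the single 1 past the criteria, with 13484 ± 1348 in WT and 19813 ± 1981 in Cx30 KO, 1.54-fold higher. It fell short of the ratio limit when arrays were scaled by their median. The largest differences downwards were in *Sdf2l1* (−0.57), *Creld2* (−0.48) and *Pdia4* (−0.37), which ATF6 is known to induce, with 0 of these past the criteria. The 23 genes for ER-associated degradation and translocation had, at their brightest probes, 0 calls and a median of −0.09, which was 0.00 when a gene's probes were averaged. Detected probes of *Syvn1*, chosen for mention after its values were seen, had log2 ratios or bounds from 0.02 to 1.15. *Derl3* had a log2 ratio of 0.42, and *Edem1*, *Derl2* and *Derl1* lay between −0.31 and −0.30.

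**Figure D3:**
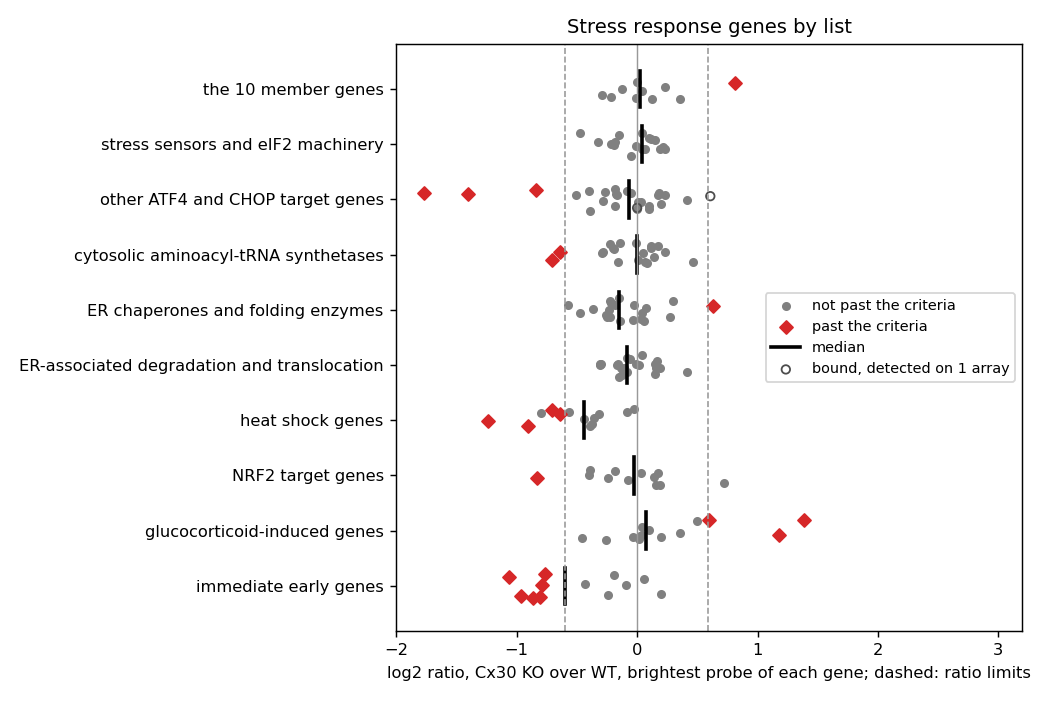
Log2 ratio of Cx30 KO over WT, 1 point for each gene at its brightest probe, for the 10 members, 5 further lists of the pathway and 4 lists of other stress and activity responses, with the median as a black bar and the ratio limits as dashed lines. The medians of the members and of the 5 pathway lists lie between −0.15 and 0.04, and those of the heat shock and immediate early genes at −0.44 and −0.60.

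Lists of other stress and activity responses were set beside these genes. All 13 heat shock genes, which serve folding in the cytosol and mitochondria and are induced by HSF1, were lower in Cx30 KO, with a median of −0.44. Of these 4 were past the criteria, *Hspb8* (−1.24), *Hspb1* (−0.91), *Bag3* (−0.71) and *Hspa1a* (−0.64), whereas *Hspa1b* (−0.80) fell short on the Z-score. Of 12 immediate early genes 10 were lower, with a median of −0.60, and 6 were past the criteria, *Egr2* (−1.06), *Nr4a1* (−0.96), *Npas4* (−0.86), *Egr4* (−0.80), *Egr1* (−0.79) and *Arc* (−0.77). The medians of both lists were below −0.42 in every scaling and filter tried. The 12 NRF2 targets had a median of −0.02, with *Hmox1*, the haem oxygenase, past the criteria (−0.83) and *Osgin1* (0.72), *Slc7a11* (−0.40, also in the ATF4 list) and *Me1* (−0.39) not past them. The 14 glucocorticoid-induced genes had a median of 0.07. In this list *Plin4* (1.38), *Cdkn1a* (1.18) and *Fkbp5* (0.60) were past the criteria as higher genes and *Zbtb16* (0.50) was not. No test of the difference between the lists was possible with 1 array for each genotype.

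Markers of the cell types in the tissue were measured in the same way, because the members are expressed in many of them. Levels are sums of scaled signals over a list, so the brightest markers weigh most in them. Striatal neuron markers were well above background in 9 of 9, most abundantly *Penk*, with sums of 479695 (WT) and 497796 (Cx30 KO). Their median log2 ratio was −0.16 here, and 0.00 when a gene's probes were averaged. Astrocyte markers (7 of 7, led by *Aldoc*) had a median of 0.01, which scaling by the array median turned to −0.04, and sums of 142536 and 136367. Oligodendrocyte markers (7 of 7) were all lower, with a median of −0.73 and sums of 171117 and 107291. Of 8 microglia markers, led by *Itgam*, 7 were lower, with a median of −0.52 and sums of 85336 and 83279. *Itgam*, the exception (0.13), made up most of both sums, with 58577 in WT and 64003 in Cx30 KO. The sums thus hardly show the lower values of the other 7. Endothelial markers (7 of 7, led by *Cldn5*) had a median of −0.19 and sums of 7206 and 6161. Choroid plexus markers (5 of 7, led by *Clic6*) had a median of −0.02 and sums of 1589 and 1403, and *Kcnj13* and *Aqp1* were not well above background. The 6 cortical neuron markers, led by *Neurod2*, were all higher, with sums of 170 and 1426 and a median of 2.14, and *Slc17a7*, *Neurod6* and *Emx1* were among those not well above background in WT. The part of these shifts in cell type markers in the values of *Trib3*, *Nupr1*, *Slc6a9* and the other stress genes was not tested.

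**Figure D4:**
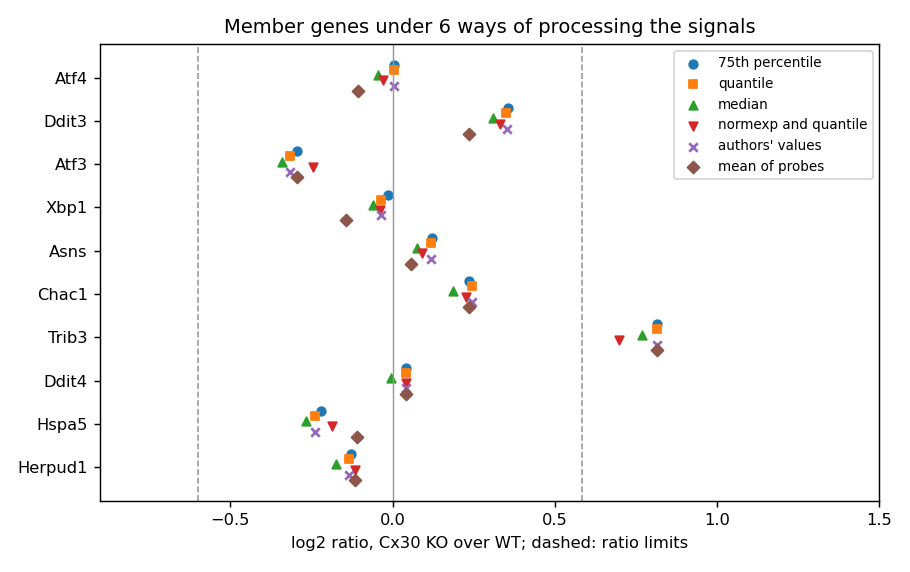
Log2 ratio of each member gene under 6 ways of processing the signals, with the ratio limits as dashed lines. *Trib3* stays beyond the upper limit in each, between 0.70 and 0.82, and the other 9 genes stay between the limits.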

How the data were processed

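The 2 arrays, 1 for each genotype, lie on 1 slide read in 1 scan. The authors extracted spot signals with Agilent Feature Extraction (version 9.5.1.1 in the submitters' processing notes, 10.7.1.1 in the file headers). The deposited processed signals are linear intensities, background-subtracted and detrended within each array and not normalised between arrays. The authors also deposited a table of 1 value for each probe and array, whose normalisation is not given in the sources used here. Its sorted columns differ by at most 0.0194%, both medians are 41.2, and for 99.991% of its intensity values a quantile normalisation of the processed signals comes within 1%, so its direction is that of the arrays.

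Controls and outlier spots were left out, and spots were averaged per probe as log2 processed signal. Well above background (at least 50% of spots) were 32019 of 56605 probes on the WT array and 32961 on the Cx30 KO array, and 0 were saturated. Each array was scaled by its 75th percentile. A gene stands for its brightest probe well above background on at least 1 array. Where that held on 1 array only, the ratio was replaced by a bound ("at least"), taken from the higher of the other array's lowest signal well above background and the probe's own, both in the ratio limits and in the Z-score. The Z-score used the mean and SD of the measured ratios of the 1000 probes nearest in mean log2 signal among all probes.

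The sources do not say over which probes the study took its Z-score. Counts of called genes were looked at under 24 definitions of it after the data were seen and with earlier counts from these data known. Of these, 3 others were in use in turn, 1 of them partly because its counts lay near the earlier ones, before the present one, which follows the wording written down at the start. The calls among the member genes were the same in all 24. The SD between spots and between probes was likewise computed in 2 ways each, and both are given.

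The members and all gene lists were chosen with earlier results of these data known. Named are all members, in each list the 4 genes with the largest absolute log2 ratio among those well above background on both arrays and every gene past the criteria, the brightest marker of each cell type and its markers not well above background, and *Gjb6*. Some genes that this rule names are not reported here, but they count in the totals of their lists. No gene was named for a pattern like that of the members, since 2 arrays give 1 difference per gene. Older symbols of 1897 probes were replaced through the RefSeq table (GRCm38.p6). The calling step was tested on simulated data. Python 3.11.15, numpy 2.4.6, pandas 2.3.3 and limma 3.58.1 (normexp, offset 50) were used. The number of arrays limits the precision.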

Additional observations from a re-analysis of the deposited data

How the results depend on the processing

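No paired analysis was possible because there is 1 array for each genotype, and for the same reason no replicate could be left out. Alternatives for the signals were the array median or quantiles in place of the 75th percentile, normexp with quantiles, and the authors' values. Alternatives for the genes were the mean of their probes, keeping dim probes, and keeping those detected on both arrays. Alternatives for the calls were ratio limits of 2 and 0.5 or the ratio limits alone, and a Z-score from the 200 nearest probes or from all probes well above background. The median of the members lay between −0.03 and 0.02, and 0 members were past the criteria as lower genes in each. *Trib3* was past them as the higher gene except with the Z-score over all probes well above background and with the limits of 2 and 0.5, where 0 members were. These settings left 2 lower pathway genes (*Nupr1* and *Aldh1l2*) in place of 5 and 0 higher in place of 1. Scaling by the median also left 0 higher, and the mean of a gene's probes left 3 lower. With the ratio limits alone 2 pathway genes were higher, *Wfs1* and *Gdf15*.

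The definition of the Z-score, examined only after the data were seen, moved the background more than any scaling did. Over 24 definitions, which differ in the probes behind the Z-score and in whether bounds or measured ratios enter it and the ratio limits, the lower genes numbered from 575 to 1027 (2.61% to 4.67%) and the higher genes from 375 to 1094 (1.70% to 4.97%), against 583 and 377 as reported. *Trib3* was past the criteria in all 24, with the same Z-score of 2.63, no other member (0) was in any, and the pathway lists had 5 lower genes in each. In 6 definitions, all with measured ratios in the Z-score, 2 pathway genes were higher, the second being *Gdf15*, which was detected in Cx30 KO only.

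With limits of 2 and 0.5, 265 of all genes were lower and 195 higher, with the Z-score over all probes well above background 290 and 213, and with the ratio limits alone 1240 and 1235. Without a filter on dim probes, 896 of 36998 genes were lower and 553 higher.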
